A study of Mus musculus with 16 samples.

Results

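The tumour suppressor gene Trp53 and 9 genes that p53 is known to switch on (Mdm2, Sesn1, Sesn2, Zmat3, Plk3, Ccng1, Phlda3, Trp53inp1 and Eda2r) were followed in germinal centre B cells with and without a mutant Ezh2 allele. They were taken from the count table by gene symbol, all 10 were among the 49492 genes listed, and 9 were among the 15240 genes with enough reads to be tested. Eda2r was the member left out by the filter on low counts.

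The cells came from spleens of C57BL/6J mice, 3 months old, removed 8 days after the animals were immunized (day 8) with sheep red blood cells, and were sorted as B220+ FAS+ CD38-. The 4 groups, of 4 libraries each, were mutant centrocytes, control centrocytes, mutant centroblasts and control centroblasts. Centrocytes, the cells of the light zone that test their receptor against antigen, were sorted as CXCR4- CD86+, and centroblasts, the dividing cells of the dark zone, as CXCR4+ CD86-. Mutants were Ezh2(Y641F)fl/wt;Cγ1-cre, in which 1 conditional allele carries a change found in germinal centre lymphoma, and controls carried Cγ1-cre+/- alone, so the Cre was present in every group. This Cre is made in B cells that transcribe the Cγ1 constant region, so the allele is switched on as cells enter the germinal centre, and it need not be recombined in every sorted cell. All libraries carried the litter label 1.

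p53 is a transcription factor that is held low by the ubiquitin ligase Mdm2, itself a p53 target, and that accumulates after DNA damage and other stress. Its targets include brakes on growth signalling, regulators of the cell cycle, cell death genes and autophagy genes. Germinal centre B cells divide fast while their immunoglobulin genes are being mutated, and their regulator Bcl6 is known, from human cells, to repress the p53 gene. Ezh2 is the enzyme that places a repressive methyl mark on histones.

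The libraries held 35230563 to 44466911 counted reads each and 19838 to 26724 genes with a count. Ezh2, whose mutant and wild-type transcripts these counts cannot tell apart, averaged 189 ± 15.2 CPM in mutant and 245 ± 15.04 CPM in control centrocytes, and 222 ± 32.02 CPM in mutant and 289 ± 42.0 CPM in control centroblasts (SD, n = 4 each). Its total was lower in mutants, with log2 fold changes of -0.37 in centrocytes and -0.38 in centroblasts (adjusted p = 0.0395 and 0.0486 in edgeR's quasi-likelihood test). CPM is the read count of a gene scaled to the size of its library, and every mean below is given with its SD over 4 libraries. The 6 B cell markers summed to 7849.7 to 11437 CPM, and Cxcr4, the sorting marker of centroblasts, was 127 to 209 CPM in centrocytes against 379 to 464 CPM in centroblasts. The 15 macrophage markers summed to 314 and 304 CPM in mutant centrocyte libraries 3 and 4, against at most 119 CPM in the other 14 libraries, so called centrocyte results are also given below without that pair, which leaves 2 mutant centrocyte libraries. By their Y-linked transcripts, libraries 1 and 2 were male and libraries 3 and 4 female in each group. In such bulk samples, fewer cells that make a transcript and less of it per cell cannot be told apart.

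Promoters of 8 of the 10 members were found in RefSeq (GRCm38.p6), 9 promoters in all because Sesn1 has a pair of starts; those of Zmat3 and Trp53inp1 were not analysed here. The 4 below are shown because they hold the matches to the p53 response element, the forkhead sequence TGTTTAC or the CRE-like sequence TGACGT found before the starts of tested members; Eda2r, not shown because it had only 2 reads, also held TGTTTAC, at position -125. Each is the 250 bases before the start, 5′ to 3′ on the strand of the gene, with matches on either strand in capitals.
Ccng1, chr11:40755287-40755536, minus strand: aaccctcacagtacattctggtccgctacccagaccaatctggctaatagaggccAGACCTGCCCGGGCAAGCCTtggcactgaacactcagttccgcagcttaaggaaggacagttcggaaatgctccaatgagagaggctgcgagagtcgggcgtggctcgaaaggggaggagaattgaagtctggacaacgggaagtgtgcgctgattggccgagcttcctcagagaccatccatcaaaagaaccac
Sesn1, downstream start, chr10:41887189-41887438, plus strand: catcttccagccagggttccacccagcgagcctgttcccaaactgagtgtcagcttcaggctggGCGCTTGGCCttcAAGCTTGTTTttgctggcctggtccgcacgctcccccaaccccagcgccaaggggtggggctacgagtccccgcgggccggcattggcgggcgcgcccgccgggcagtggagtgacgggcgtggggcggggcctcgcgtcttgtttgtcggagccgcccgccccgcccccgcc
Plk3, chr4:117133964-117134213, minus strand: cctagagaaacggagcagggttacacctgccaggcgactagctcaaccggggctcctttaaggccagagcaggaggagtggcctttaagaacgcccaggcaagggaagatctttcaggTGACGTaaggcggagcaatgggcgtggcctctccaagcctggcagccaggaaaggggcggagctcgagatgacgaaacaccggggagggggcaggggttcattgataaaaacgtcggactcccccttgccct
Mdm2, chr10:117710759-117711008, minus strand: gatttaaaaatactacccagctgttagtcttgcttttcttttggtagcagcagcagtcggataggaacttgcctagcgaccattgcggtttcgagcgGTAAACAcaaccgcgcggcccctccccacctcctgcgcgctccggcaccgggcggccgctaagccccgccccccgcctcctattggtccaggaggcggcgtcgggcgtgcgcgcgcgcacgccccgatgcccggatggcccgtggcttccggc

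The capitals in Ccng1, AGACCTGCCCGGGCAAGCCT at chr11:40755462-40755481, match the p53 response element with 1 mismatch and no spacer between its half-sites; 25 bases nearest the start are exon in GENCODE M21. Allowing 1 mismatch, 0.6271% of the 32851 mouse promoters held such a match. Those in Sesn1 (GCGCTTGGCCttcAAGCTTGTTT at chr10:41887253-41887275) have 2 mismatches and a spacer of 3 bases, and 4.085% of promoters held a match that loose or better. A further match at each of these promoters, with 2 mismatches and a spacer of 5 bases, overlapped the one shown. The capitals in Plk3 are TGACGT, held by 7.513% of promoters of the same length, and those in Mdm2 are TGTTTAC read on the other strand, held by 3.65%. The upstream start of Sesn1 held TGTTTAC as well, at position 22, after the start and so outside the stretches shown. These matches are descriptions of letters in a window of 300 bases (250 before and 50 after the start), and well-known p53 elements such as those in the first intron of Mdm2 lie outside it.

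Per kilobase of exon, the members spanned a wide range of levels. Trp53 was highest, at a mean of 48.7 CPM per kb over the 4 groups, followed by Ccng1 at 32.02, Trp53inp1 at 25.3 and Mdm2 at 22.4 CPM per kb. Sesn1 had 7.10, Plk3 5.03, Sesn2 3.10 and Zmat3 1.37 CPM per kb. Phlda3 had 0.118 CPM per kb from 113 reads in all 16 libraries, and Eda2r had 2 reads in all, 1 in mutant centrocyte library 1 and 1 in mutant centroblast library 2. Ccng1, Trp53inp1 and Mdm2 lay close to one another, and their order changed with the group: in control centroblasts Trp53inp1 had 39.3 CPM per kb, above Ccng1 at 29.9 and Mdm2 at 25.6, whereas in mutant centrocytes Trp53inp1 had 16.3, below Mdm2 at 18.7 and Ccng1 at 35.9.

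**Figure D1:**
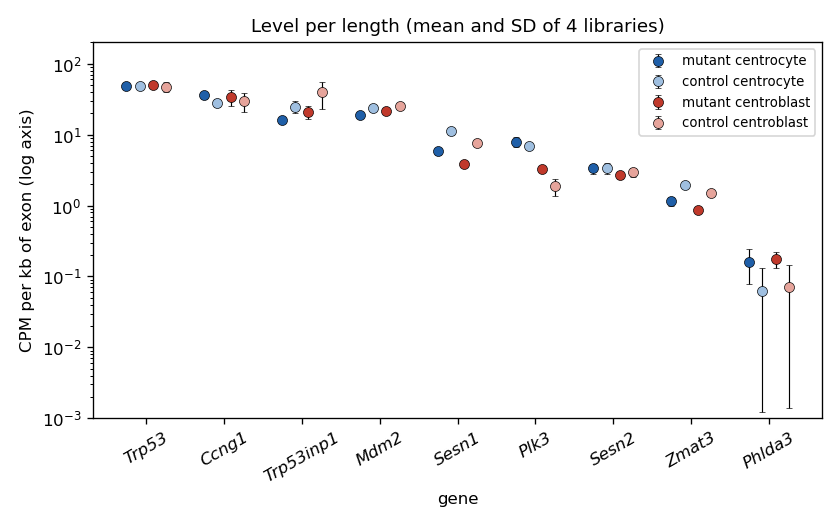
Level of the 9 tested members in CPM per kb of exon on a log axis, with points for the mean and bars for the SD of 4 libraries in mutant centrocytes, control centrocytes, mutant centroblasts and control centroblasts, from left to right. Trp53 (48.7 CPM per kb on average) stands highest and Phlda3 (0.118) lowest, and for Sesn1 and Zmat3 both mutant means lie below the control mean of the same cell type; bars of Phlda3 that would pass 0 end just above it.

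Between mutant and control cells, Sesn1 and Zmat3 were lower in mutants in both cell types, Trp53inp1 was lower and Plk3 higher in mutant centroblasts, and Mdm2 was lower in mutant centrocytes. Trp53 itself, Sesn2, Ccng1 and Phlda3 did not pass the test in either cell type. In centroblasts 1 of the 9 tested members was called higher and 3 lower, where calls made up 10.5% of all tested genes (4.06% higher and 6.4% lower). In centrocytes no member was called higher and 3 were called lower, where 16.5% of all genes were called (7.37% higher and 9.15% lower). The median log2 fold change of the members was -0.028 in centrocytes and -0.14 in centroblasts, and that of all tested genes 0.0014 in centrocytes and 0.0083 in centroblasts. A gene is called when its adjusted p is below 0.05 in edgeR's quasi-likelihood test with Benjamini-Hochberg adjustment over all 15240 genes. Log2 fold changes are mutant over control, ± an SE derived from that test. It is the size of the log2 fold change divided by the square root of the F statistic.

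**Figure D2:**
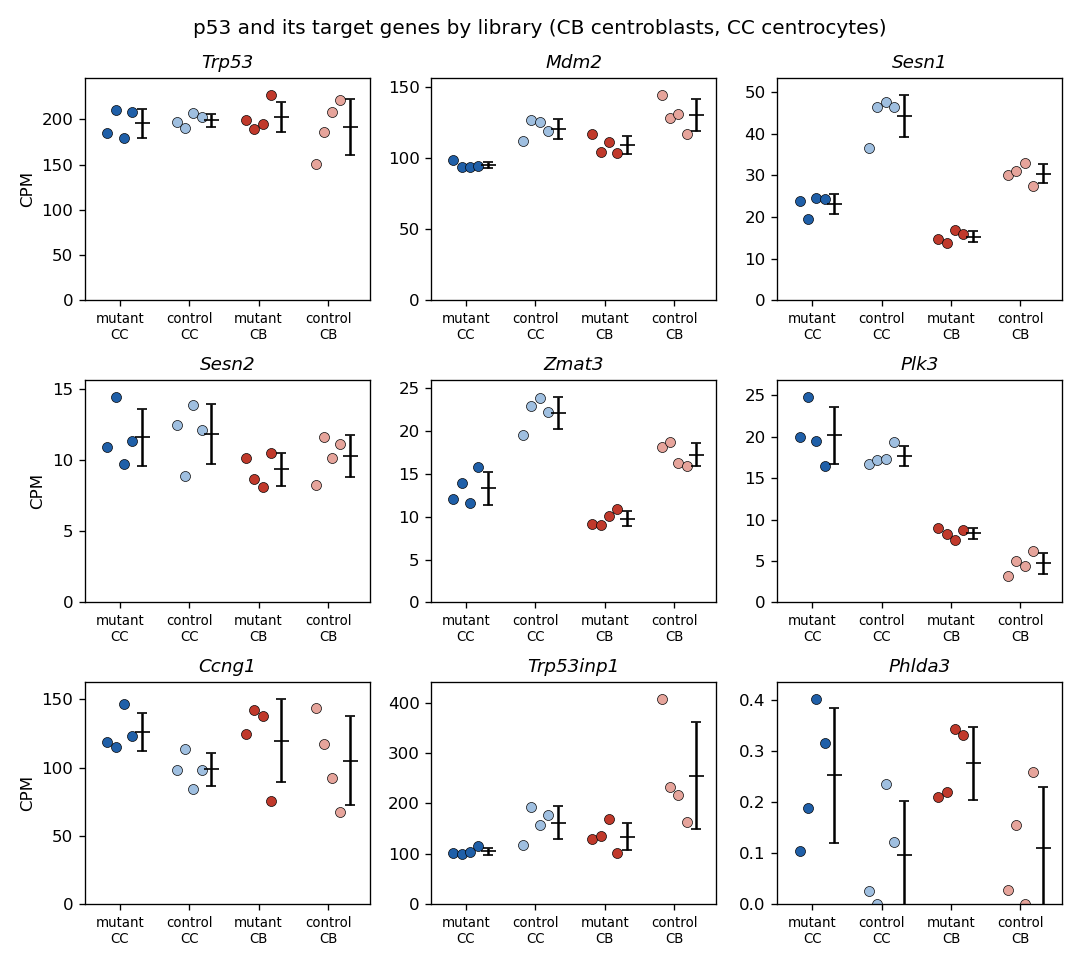
Level of each tested member in CPM in every library of mutant centrocytes (CC), control centrocytes, mutant centroblasts (CB) and control centroblasts, with libraries 1 to 4 from left to right and the mean and SD of the 4 beside them. For Sesn1 and Zmat3 every mutant point lies below every control point of the same cell type; for Trp53inp1 control centroblast library 1, at 407 CPM, stands above all other libraries.

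Trp53, the gene of p53 itself, was called in no comparison. It had 185, 210, 180 and 208 CPM in mutant centrocytes, against 197, 190, 207 and 202 CPM in control centrocytes. In centroblasts the values were 199, 189, 195 and 227 CPM in mutants, against 150, 186, 209 and 221 CPM in controls. The groups overlapped in both cell types, and control centroblast library 1 was the lowest of the 16. The log2 fold change was -0.03 ± 0.11 in centrocytes and 0.08 ± 0.11 in centroblasts, with adjusted p of 0.898 and 0.723 in edgeR's quasi-likelihood test. Transcript level says nothing of p53 protein, which is set mainly by its turnover.

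Mdm2, the ligase that marks p53 for degradation, was modestly lower in mutants. Mutant centrocytes had 98.7, 93.7, 93.5 and 94.6 CPM, against 112, 127, 125 and 119 CPM in control centrocytes. Mutant centroblasts had 117, 104, 112 and 103 CPM, against 144, 128, 131 and 117 CPM in control centroblasts. In both cell types the mutant libraries lay below the control libraries, in centroblasts by a narrow margin between mutant library 1 and control library 4. On the log2 scale the fold change was -0.34 ± 0.08 in centrocytes (edgeR adjusted p = 0.00973) and -0.26 ± 0.08 in centroblasts, which missed the threshold (adjusted p = 0.0595). The centrocyte call stayed with each library left out in turn, but without both mutant libraries 3 and 4 it was lost at -0.32 (adjusted p = 0.0862). It was also lost without a filter on low counts (adjusted p = 0.0736), in males alone (adjusted p = 0.231) and in females alone (adjusted p = 0.0816), while DESeq2 called Mdm2 lower in centroblasts too (adjusted p = 0.0146).

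Sesn1 encodes a sestrin, a stress-induced protein that restrains the growth kinase mTORC1 through the GATOR complexes. It had 23.8, 19.7, 24.7 and 24.4 CPM in mutant centrocytes, against 36.6, 46.3, 47.6 and 46.3 CPM in control centrocytes. Mutant centroblasts had 14.7, 13.8, 16.98 and 15.8 CPM, against 30.1, 31.1, 33.0 and 27.4 CPM in control centroblasts. No mutant library reached any control library of its cell type, in males as in females. On the log2 scale the difference was -0.93 ± 0.11 in centrocytes (edgeR adjusted p = 5.12e-05), a 1.91-fold lower level in mutants, and -0.99 ± 0.11 in centroblasts (adjusted p = 3.39e-05), 1.98-fold lower. Without mutant centrocyte libraries 3 and 4, which held the macrophage transcripts, the centrocyte value was -1.02 (adjusted p = 0.00112). Its relative Sesn2, whose product senses leucine, had 9.73 to 14.4 CPM in mutant and 8.89 to 13.9 CPM in control centrocytes, and 8.13 to 10.5 CPM in mutant and 8.24 to 11.6 CPM in control centroblasts. These ranges overlapped, and the log2 fold changes were -0.03 ± 0.16 and -0.14 ± 0.16 (edgeR adjusted p = 0.928 and 0.683).

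Zmat3 encodes a zinc finger protein that binds RNA and affects splicing and transcript stability. It had 12.04, 13.9, 11.7 and 15.8 CPM in mutant centrocytes, against 19.5, 22.9, 23.8 and 22.3 CPM in control centrocytes. Mutant centroblasts had 9.13, 8.98, 10.1 and 10.9 CPM, against 18.1, 18.7, 16.3 and 15.9 CPM in control centroblasts. The mutant and control libraries did not overlap in either cell type. The fitted log2 fold change was -0.73 ± 0.12 in centrocytes (edgeR adjusted p = 0.000752) and -0.82 ± 0.12 in centroblasts (adjusted p = 0.000306). Without mutant centrocyte libraries 3 and 4 it was -0.76 in centrocytes (adjusted p = 0.005). In centroblasts of females alone the difference, -0.61, was not called (adjusted p = 0.115), with 2 libraries a group.

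Plk3, a polo-like kinase that acts in stress responses and the cell cycle, was the member that was higher in mutant centroblasts. These had 8.999, 8.22, 7.51 and 8.79 CPM, against 3.22, 5.06, 4.45 and 6.19 CPM in control centroblasts, with no overlap. Centrocytes of both genotypes had more, at 19.95, 24.8, 19.5 and 16.5 CPM in mutants, against 16.7, 17.2, 17.4 and 19.4 CPM in controls, and there the groups overlapped. Its log2 fold change was 0.82 ± 0.17 in centroblasts (edgeR adjusted p = 0.00405) and 0.19 ± 0.16 in centrocytes (adjusted p = 0.450). In centroblasts of females alone it was 0.62 and not called (adjusted p = 0.151). Plk3 shares 84 exon bases with Tctex1d4 on the opposite strand, and reads from that stretch cannot be assigned without the strand setting.

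Ccng1 encodes cyclin G1, an atypical cyclin that recruits a phosphatase to Mdm2. It had 119, 115, 146 and 123 CPM in mutant centrocytes, against 98.5, 114, 84.7 and 98.2 CPM in control centrocytes, so mutant libraries lay just above control libraries. In centroblasts the values were 124, 142, 138 and 75.6 CPM in mutants, against 143, 117, 92.5 and 67.4 CPM in controls, with wide overlap and the lowest value in library 4 of each genotype. The log2 fold change was 0.35 ± 0.20 in centrocytes and 0.19 ± 0.20 in centroblasts (edgeR adjusted p = 0.258 and 0.644). When GC content and length were fitted as an offset, Ccng1 was called higher in both, at 0.59 (adjusted p = 0.000612) and 0.39 (adjusted p = 0.0144), and in the centrocyte libraries alone it was called at 0.34 (adjusted p = 0.0419).

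Trp53inp1, which encodes a stress protein active in autophagy and in p53-dependent death, spread widely among control libraries. Mutant centrocytes had 102, 99.0, 104 and 116 CPM, against 117, 193, 158 and 177 CPM in control centrocytes. Mutant centroblasts had 130, 135, 170 and 103 CPM, against 407, 233, 216 and 162 CPM in control centroblasts. In centrocytes the groups did not overlap, by a narrow margin between mutant library 4 and control library 1, and in centroblasts mutant library 3 lay above control library 4. The log2 fold change was -0.62 ± 0.22 in centrocytes, which missed the threshold (edgeR adjusted p = 0.0661), and -0.92 ± 0.22 in centroblasts (adjusted p = 0.0116). Without control centroblast library 1 the centroblast value was -0.61 (adjusted p = 0.0329); it was -1.28 in males (adjusted p = 0.00628) and -0.46 in females, where it was not called (adjusted p = 0.331). A fit of the centroblast libraries alone gave -0.92 with an adjusted p of 0.0603, whereas the centrocyte difference was called by DESeq2 (adjusted p = 0.0375), without a filter on low counts (adjusted p = 0.00524) and in the centrocyte libraries alone (adjusted p = 0.0061). With the GC and length offset the centrocyte difference was -0.27 (adjusted p = 0.0677).

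The remaining pair was near or below detection. Phlda3, whose product competes with the kinase Akt for membrane lipids, had 4, 7, 14 and 12 reads in mutant and 1, 0, 10 and 5 reads in control centrocytes, and 8, 8, 15 and 12 reads in mutant and 1, 6, 0 and 10 reads in control centroblasts. The groups overlapped, and the log2 fold changes of 1.34 ± 0.80 and 1.30 ± 0.78 did not pass (edgeR adjusted p = 0.268 and 0.360). Eda2r, a receptor of the tumour necrosis factor family, was not detectable at this depth beyond single reads in the 2 libraries named above.

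**Figure D3:**
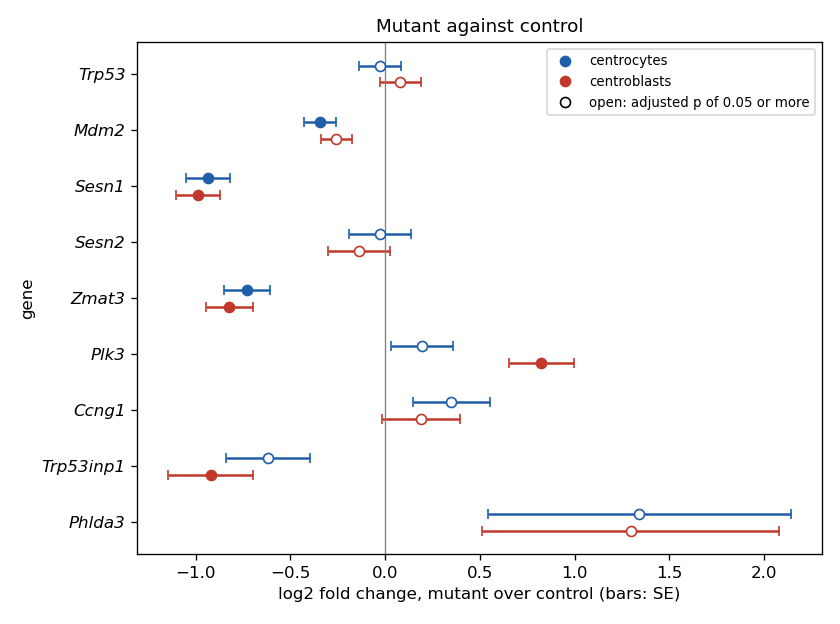
Log2 fold change of mutant over control with its SE for the 9 tested members, in centrocytes (upper point of each pair) and centroblasts (lower point), filled where the adjusted p is under 0.05. Sesn1 and Zmat3 are filled below 0 in both cell types, Mdm2 in centrocytes and Trp53inp1 in centroblasts, and Plk3 is filled above 0 in centroblasts at 0.82.

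Libraries of mutants and controls did not overlap for 5 members in centrocytes (1 higher, 4 lower) and for 4 in centroblasts (1 higher, 3 lower). Of all tested genes, 23.5% did not overlap in centrocytes (11.1% higher, 12.4% lower) and 14.4% in centroblasts (6.36% higher, 8.01% lower). Over all tested genes 1123 were called higher and 1394 lower in mutant centrocytes, and 619 and 976 in mutant centroblasts. With the GC and length offset the split turned to 2750 higher and 1546 lower, and 1566 higher and 1158 lower, and the median gene to 0.08 and 0.06, so directions of small differences depend on that scaling.

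Between zones, Plk3, Sesn1 and Zmat3 were higher in centrocytes than in centroblasts of both genotypes, and Trp53inp1 was lower in centrocytes of controls. In mutants 3 of the 9 tested members were called higher and none lower, where 16% of all genes were called (8.92% higher, 7.07% lower). In controls 3 were called higher and 1 lower, where 27.8% of all genes were called (14.9% higher, 12.9% lower). The libraries of the zones did not overlap for 4 members in mutants (3 higher and Mdm2 lower), beside 22.1% of all genes (11.5% higher, 10.5% lower), and for 3 in controls, all higher, beside 27.7% (15.4% higher, 12.3% lower).

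Plk3 had the widest difference between zones among the members. It averaged 20.2 ± 3.46 CPM in centrocytes and 8.38 ± 0.668 CPM in centroblasts of mutants, and 17.7 ± 1.20 CPM in centrocytes and 4.73 ± 1.24 CPM in centroblasts of controls. The centrocyte libraries were all above the centroblast libraries. The log2 fold change, centrocytes over centroblasts, was 1.27 ± 0.17 in mutants (edgeR adjusted p = 5.02e-05) and 1.90 ± 0.17 in controls (adjusted p = 6.15e-07), fold differences of 2.41 and 3.73. Both stayed called whichever single library was removed, and without mutant centrocyte libraries 3 and 4 the value in mutants was 1.43 (adjusted p = 0.00022).

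Sesn1 averaged 23.1 ± 2.35 CPM in centrocytes and 15.3 ± 1.38 CPM in centroblasts of mutants, and 44.2 ± 5.10 CPM in centrocytes and 30.4 ± 2.34 CPM in centroblasts of controls. The zones did not overlap in either genotype, and mutant centrocytes, the higher zone, still lay below control centroblasts. Its log2 fold change was 0.59 ± 0.11 in mutants (edgeR adjusted p = 0.00154) and 0.54 ± 0.11 in controls (adjusted p = 0.00194). Zmat3 averaged 13.4 ± 1.93 CPM in centrocytes and 9.77 ± 0.887 CPM in centroblasts of mutants, and 22.1 ± 1.87 CPM in centrocytes and 17.3 ± 1.39 CPM in centroblasts of controls. Its group means stood in the same order as those of Sesn1, with smaller differences between zones, 0.45 ± 0.12 in mutants and 0.36 ± 0.12 in controls (edgeR adjusted p = 0.0181 and 0.0367). Leaving out single libraries ended the Zmat3 call in 4 of 8 cases in mutants (adjusted p up to 0.0746) and in 5 of 8 in controls (up to 0.0997), and without mutant centrocyte libraries 3 and 4 the adjusted p in mutants was 0.0604. Without a filter on low counts Zmat3 was called between zones in neither genotype (adjusted p of 0.0900 in mutants and 0.153 in controls). The Sesn1 value in mutants without that pair was 0.51 (adjusted p = 0.0265). The Sesn1 difference was not called in females alone in mutants (adjusted p = 0.0525) and in males alone in controls (adjusted p = 0.111).

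Trp53inp1 averaged 105 ± 7.33 CPM in centrocytes and 135 ± 27.7 CPM in centroblasts of mutants, and 161 ± 32.6 CPM in centrocytes and 255 ± 106 CPM in centroblasts of controls, where the zones overlapped. The log2 fold change was -0.35 ± 0.22 in mutants (edgeR adjusted p = 0.311) and -0.66 ± 0.22 in controls (adjusted p = 0.0350). Without control centroblast library 1 the control value was -0.34 (adjusted p = 0.1503), and in 3 further cases leaving out 1 centrocyte library (1, 3 or 4) ended the call. Mdm2 was lower in every centrocyte library than in every centroblast library of mutants, and its log2 fold changes of -0.20 ± 0.08 in mutants and -0.11 ± 0.08 in controls did not pass (edgeR adjusted p = 0.124 and 0.353). Trp53, Sesn2, Ccng1 and Phlda3 were called between zones in neither genotype, and the log2 fold changes of Trp53 were -0.05 ± 0.11 in mutants and 0.06 ± 0.11 in controls.

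**Figure D4:**
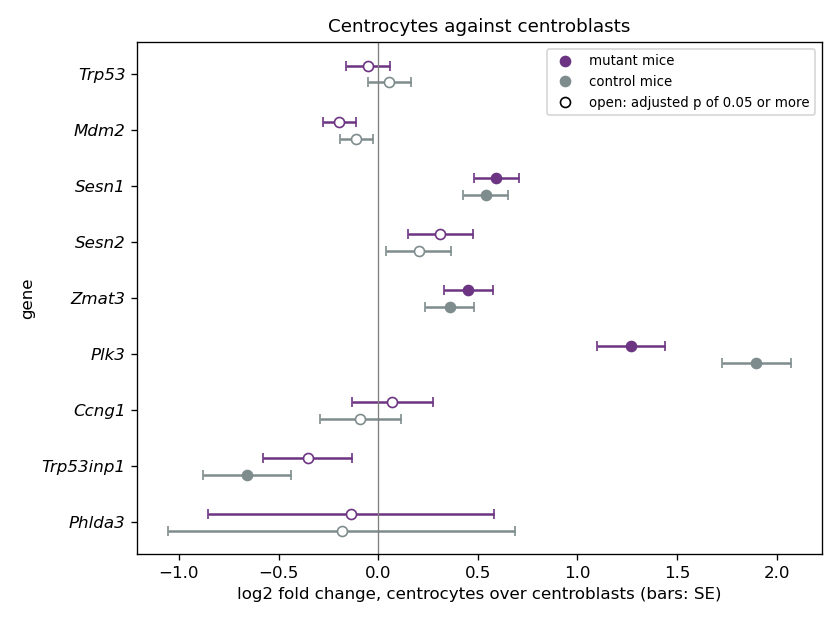
Log2 fold change of centrocytes over centroblasts with its SE for the 9 tested members, in mutant mice (upper point of each pair) and control mice (lower point), filled where the adjusted p is under 0.05. Plk3 lies furthest right, at 1.27 in mutants and 1.90 in controls, Sesn1 and Zmat3 are filled above 0 in both, and Trp53inp1 is filled below 0 in controls at -0.66.

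Whether the genotype difference differed between centrocytes and centroblasts was tested as an interaction over the 16 libraries. No member was called, and none of the 15240 genes was (0%) in edgeR's quasi-likelihood test, with 429 genes at an unadjusted p under 0.05 and 1 gene called by DESeq2. Plk3 was the 1 member at an unadjusted p under 0.05: its genotype difference was smaller in centrocytes than in centroblasts by 0.63 on the log2 scale (-0.63 ± 0.24, adjusted p = 0.999 in edgeR). For Sesn1 the difference of differences was 0.05 ± 0.16 and for Zmat3 0.09 ± 0.17. So although Plk3 and Trp53inp1 were called in centroblasts alone and Mdm2 in centrocytes alone, a difference between the zones in their genotype effect was not shown.

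Other p53 targets with known roles, 37 genes of which 34 were tested, moved in both directions. In centrocytes 3 were higher and 5 lower in mutants, and in centroblasts 2 were higher and 4 lower, with median log2 fold changes of 0.10 and -0.04, where 16.5% of all tested genes were called in centrocytes and 10.5% in centroblasts. Without mutant centrocyte libraries 3 and 4, 3 of the 34 were called in centrocytes, all higher, in place of 8. The share of all tested genes called also fell there, from 16.5% to 7.64%. Of the 9 tested arrest genes, 1 was lower in mutant centrocytes (Gtse1, which holds p53 in check in human cells, -0.48 ± 0.15, called in 13 of 21 other fits and not without that pair) and none was called in centroblasts. Cdkn1a, the main p53 target that stops the cell cycle, had 4.02, 5.10, 3.24 and 2.95 CPM in mutant centrocytes, against 2.73, 2.05, 2.47 and 2.41 CPM in control centrocytes, without overlap. In centroblasts it had 2.89, 2.79, 2.77 and 2.54 CPM in mutants, against 1.41, 1.26, 1.96 and 2.81 CPM in controls, which overlapped. The log2 fold changes of Cdkn1a, 0.67 ± 0.23 and 0.56 ± 0.24, missed the threshold (edgeR adjusted p = 0.0603 and 0.161). DESeq2 called 2 arrest genes higher and 1 lower in mutant centrocytes, where it called 20.5% of all genes. Without mutant centrocyte libraries 3 and 4, 1 arrest gene was called higher and none lower, where 7.64% of all genes were called.

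Of the 11 tested death genes, 2 were lower in each cell type and none was higher. Of all tested genes 9.15% were lower in centrocytes and 6.4% in centroblasts. No death gene was called in centroblasts of females alone, where 3.27% of all genes were called. Pmaip1, which encodes the BH3-only protein Noxa, averaged 10.9 ± 1.37 CPM in mutant and 17.3 ± 3.47 CPM in control centrocytes, and 10.98 ± 2.04 CPM in mutant and 19.4 ± 4.85 CPM in control centroblasts. The mutant and control libraries of Pmaip1 did not overlap, and the log2 fold changes were -0.67 ± 0.19 and -0.82 ± 0.19 (edgeR adjusted p = 0.0244 and 0.00950). Pidd1, which builds a caspase-activating complex, was lower in mutant centrocytes (-0.69 ± 0.14) and Ei24 in mutant centroblasts (-0.54 ± 0.15, called in 12 of 20 other fits). Neither centrocyte call held without mutant libraries 3 and 4, with Pmaip1 at -0.81 (adjusted p = 0.0620) and Pidd1 at -0.52 (adjusted p = 0.0814). Bax and Bbc3, a pair of core death targets, were called in neither.

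Of the 5 repair genes 1 was lower and none higher in mutants of each cell type. Of all tested genes 9.15% were lower in centrocytes and 6.4% in centroblasts. The lower repair gene was Ercc5, an endonuclease of nucleotide excision repair. It averaged 10.5 ± 0.937 CPM in mutant and 15.7 ± 1.48 CPM in control centrocytes, and 7.21 ± 0.818 CPM in mutant and 11.9 ± 1.60 CPM in control centroblasts. Its log2 fold changes were -0.57 ± 0.13 and -0.72 ± 0.13 (edgeR adjusted p = 0.00675 and 0.00169), and like Sesn1 and Zmat3 it was also higher in centrocytes than in centroblasts, by 0.54 ± 0.13 in mutants and 0.40 ± 0.13 in controls. Without mutant centrocyte libraries 3 and 4 the genotype difference of Ercc5 in centrocytes was -0.57 and not called (adjusted p = 0.0563), and the control zone difference was called in 10 of 20 other fits.

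The 9 tested metabolic targets held the higher ones. Ephx1, an epoxide hydrolase, averaged 134 ± 5.69 CPM in mutant and 78.7 ± 11.01 CPM in control centrocytes, and 43.5 ± 4.47 CPM in mutant and 21.6 ± 4.32 CPM in control centroblasts, with no overlap. Its log2 fold changes were 0.77 ± 0.13 and 1.01 ± 0.13 (edgeR adjusted p = 0.000783 and 0.000111), and it was called in 21 of 21 other fits in centrocytes and 20 of 20 in centroblasts. Ddit4, another brake on mTORC1, was higher by 0.84 ± 0.17 in mutant centrocytes and by 0.59 ± 0.17 in mutant centroblasts, called in 20 of 21 and 10 of 20 other fits, and Gpx1, a peroxidase, by 0.49 ± 0.16 in centrocytes, called in 12 of 21. Gls2, a glutaminase at only 0.127 ± 0.0982 CPM in mutant and 0.424 ± 0.109 CPM in control centrocytes, was lower by -1.71 ± 0.56 (edgeR adjusted p = 0.0469), and Abhd4 was lower in mutant centroblasts (-0.55 ± 0.16). The Gls2 call held in 6 of 20 other fits and the Abhd4 call in 11 of 20. In centrocytes without mutant libraries 3 and 4, Ephx1 and Ddit4 were still called, at 0.81 and 1.02, and Gpx1 and Gls2 were not.

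**Figure D5:**
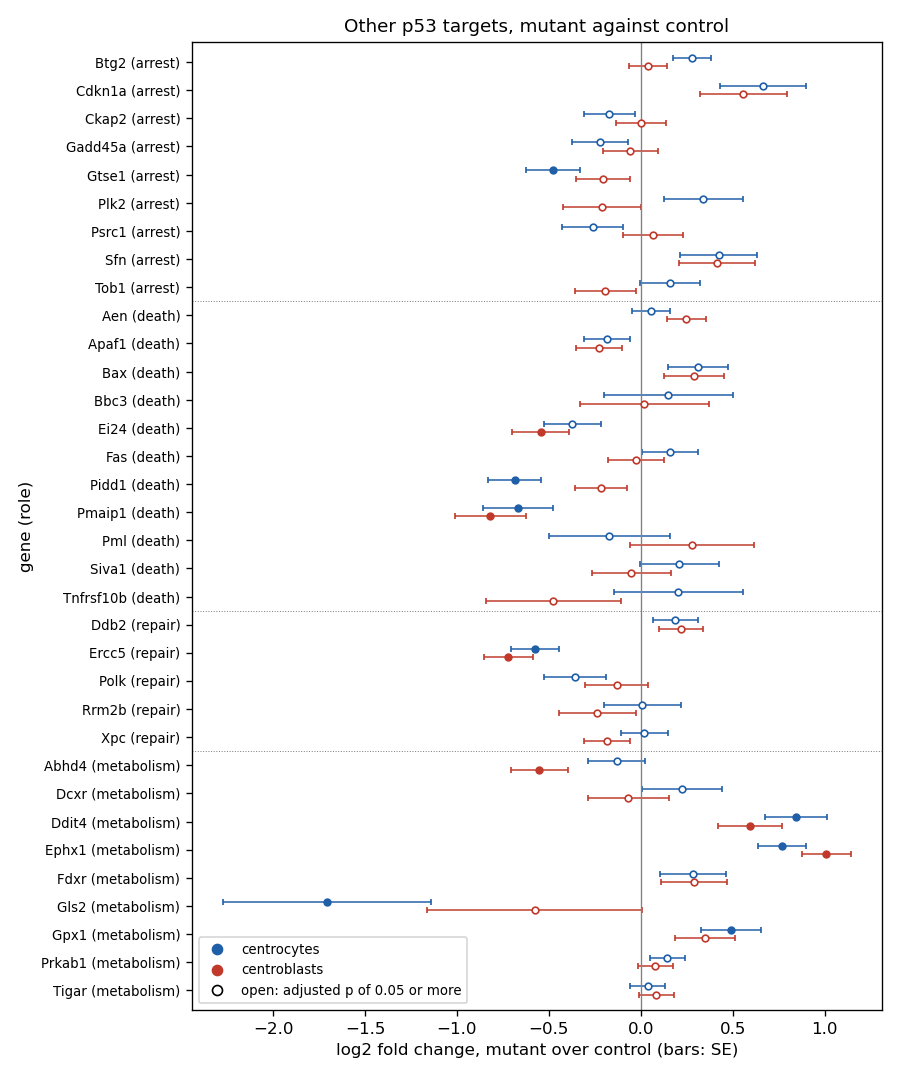
Log2 fold change of mutant over control with its SE for the 34 other tested p53 targets, grouped by role, in centrocytes (upper point of each pair) and centroblasts (lower point), filled where the adjusted p is under 0.05. Ephx1 and Ddit4 are filled above 0 and Pmaip1 and Ercc5 below 0 in both cell types; Gls2 in centrocytes, at -1.71, has the largest SE.

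Between zones, 6 of these 34 targets were higher and 4 lower in centrocytes of mutants, and 6 were higher and 7 lower in centrocytes of controls, where 16% of all genes were called in mutants and 27.8% in controls. In mutants 4 were higher and 3 lower without centrocyte libraries 3 and 4, where 11.8% of all genes were called. Those higher in both genotypes included Ephx1 (1.63 ± 0.13 in mutants, 1.86 ± 0.14 in controls), Ddit4 (1.69 ± 0.17 and 1.44 ± 0.17) and Pml, the organizer of nuclear bodies that bind p53 (1.39 ± 0.34 and 1.84 ± 0.34). Those lower in both included Psrc1, a spindle protein (-1.58 ± 0.17 and -1.26 ± 0.17), and Rrm2b, a subunit of ribonucleotide reductase (-0.82 ± 0.21 and -1.06 ± 0.21). Without that pair the calls in mutants ended for Pml (1.17, edgeR adjusted p = 0.0806) and Rrm2b (-0.85, adjusted p = 0.0637) and held for Ephx1, Ddit4 and Psrc1.

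Of the 16 tested regulators of p53 (kinases, acetyltransferases, ligases, the phosphatase Ppm1d and Bcl6), none was called in mutant centrocytes (16.5% of all genes) and 1 was higher in mutant centroblasts (4.06% of all genes were). That gene was Cdkn2a, whose Arf product inhibits Mdm2, with 2.91, 3.26, 2.24 and 2.89 CPM in mutants, against 1.22, 0.955, 1.55 and 2.27 CPM in controls. Mutant library 3 lay just below control library 4, and the log2 fold change was 0.91 ± 0.27 (edgeR adjusted p = 0.0352), called in 9 of 20 other fits. The locus also encodes the CDK inhibitor p16, and counts per gene do not separate the products. Bcl6 had log2 fold changes of -0.13 ± 0.12 in centrocytes and -0.03 ± 0.12 in centroblasts, and Mdm4, the partner of Mdm2, -0.35 ± 0.19 and -0.23 ± 0.19, none of them called.

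Among 9 tested relatives of the members, 2 were lower in mutant centrocytes, 3 in mutant centroblasts, and none higher in either, where 9.15% and 6.4% of all tested genes were lower. None was called in centrocytes in females alone (13.9% of all genes called) or without mutant libraries 3 and 4 (7.64%). In centroblasts none was called when the centroblast libraries were fitted alone (7.48%). Sesn3, the third sestrin, averaged 219 ± 30.5 CPM in mutant and 273 ± 20.9 CPM in control centrocytes (-0.32 ± 0.13, edgeR adjusted p = 0.0977), and 179 ± 20.5 CPM in mutant and 244 ± 40.6 CPM in control centroblasts (-0.45 ± 0.13, adjusted p = 0.0303). Plk4, the kinase of centriole duplication, was lower in mutant cells of either type (-0.56 ± 0.15 in centrocytes and -0.51 ± 0.15 in centroblasts), as was Phlda1 (-0.65 ± 0.20 and -0.88 ± 0.21). Plk4 was called in 18 of 21 other fits in centrocytes and 11 of 20 in centroblasts, Phlda1 in 9 of 21 and 17 of 20, and Sesn3 in centroblasts in 10 of 20. Plk1, the mitotic kinase, was lower in centrocytes than in centroblasts (-1.01 ± 0.15 in mutants and -0.82 ± 0.15 in controls), the opposite of Plk3.

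Sestrins and some other members are also known targets of FoxO factors, and Plk3 of growth and stress signals, so both kinds of gene were read as well. Of 9 tested FoxO targets 1 was higher and 1 lower in mutant centrocytes, and 2 were higher and 2 lower in mutant centroblasts, where 16.5% and 10.5% of all genes were called. Pik3ip1, an inhibitor of PI3 kinase, was higher (0.83 ± 0.18 in centrocytes, 0.88 ± 0.19 in centroblasts) and Bcl2l11, which encodes the death protein Bim, lower (-1.05 ± 0.15 and -0.67 ± 0.15), and both were called in centrocytes without mutant libraries 3 and 4 as well. Of 11 immediate early genes, 2 were lower in mutant centrocytes (Egr2, -0.63 ± 0.20, and Egr1, -0.54 ± 0.18), where 9.15% of all genes were lower. In mutant centroblasts 1 was higher (Egr3, 1.07 ± 0.22), where 4.06% of all genes were higher. Neither Egr2 (-0.45, edgeR adjusted p = 0.246) nor Egr1 (-0.29, adjusted p = 0.308) was called without mutant centrocyte libraries 3 and 4. Between zones, 5 were higher and 1 lower in centrocytes of mutants and 6 and 1 in controls, where 16% and 27.8% of all genes were called. Egr3 was higher by 2.40 ± 0.22 in mutants and by 3.07 ± 0.23 in controls, the same direction as Plk3, and the stress gene Atf3 was lower (-2.69 ± 0.27 in mutants and -3.07 ± 0.28 in controls).

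The genes whose pattern over the 16 libraries was most like that of a called member were found by the root mean square distance of log2 CPM, centred on each gene's mean. Nearest to Sesn1 were Zkscan7 at 0.162 and Inpp4a at 0.169, and Zmat3 was its 5th nearest of all tested genes at 0.188; the root mean square of Sesn1 itself was 0.570. Ralgapa2 at 0.122 and Basp1 at 0.133 were nearest to Zmat3, Nsmf at 0.173 and Sh3bp2 at 0.1999 to Plk3, Hipk3 at 0.186 and Nadk2 at 0.190 to Trp53inp1, and Hbs1l at 0.0790 and Wdhd1 at 0.0898 to Mdm2. These distances describe likeness of level across libraries that share genotype, zone and sex.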

How the data were processed

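RNA of the 16 sorted samples was sequenced from Illumina TruSeq RNA libraries. The deposited table holds raw read counts per gene symbol from the authors. Per the submitters' processing notes, Trim Galore, cutadapt, STAR 2.5.3a, Subread and featureCounts 1.4.5-p1 were used with build mm10; annotation, strand and counting options are not given in the sources used here. Naive B cells, also mentioned in the design text, are not analysed here. The 92 spike-in rows, with 3 reads in all, were left out.

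Counts were fitted in R 4.3.3 with edgeR 4.0.16 (filterByExpr by group with a minimum count of 10, TMM factors, 1 mean per group over 16 libraries, 12 residual degrees of freedom, quasi-likelihood test, 2-sided). P values were adjusted by Benjamini-Hochberg over 15240 genes, with a threshold of 0.05. CPM values used the TMM-scaled library size. GENCODE M21 gave coordinates, exon lengths and GC content by symbol, for 14774 tested genes (96.94%), and RefSeq gave promoters. The number of mismatches allowed in the p53 element was set after the promoters had been scanned. Other settings were DESeq2 1.42.0, RLE factors, filtering either not at all or by a mean CPM of 1 or more, fitting just the compared groups, a replicate block, sex as a covariate, each sex alone, an offset for GC content and length (splines with 4 degrees of freedom), that offset with the block, no immunoglobulin genes, no mutant centrocyte libraries 3 and 4, and each library left out. Same-numbered mutant libraries of the zones deviated together (correlations of 0.263 to 0.327 in the 4 pairs), but only those numbered 1 correlated best with each other. Libraries of the same number also share sex, so a shared mouse cannot be told apart from it, and the main fit paired no libraries. In the other comparisons at least 1 pair was at or below 0.1. The replicate block gave same-numbered libraries a shared term, and across genotypes these are different mice. Except for the interaction, each fit with the block held just the compared groups.

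The submitters call the samples biological replicates. The members and gene lists were chosen with earlier results of these data known. All 10 members are named in each comparison. From the other lists, called genes were named from the up to 3 a direction with the smallest p, and not all of these are named. Any others named (such as Cdkn1a, Bax, Bbc3, Bcl6, Mdm4) were chosen after their values were seen. Calls not described above include Cdkn1b in mutant centroblasts. Between zones in controls 2 regulators were higher and 1 lower, and 3 FoxO targets higher and 2 lower (27.8% of all genes called). In mutants no regulator was called between zones, and 2 FoxO targets were higher and 1 lower (16% of all genes called). The procedure was tested on simulated counts. No source used here mentions molecular identifiers, so counting error may understate the true error.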

Additional observations from a re-analysis of the deposited data

Results flagged for a closer look

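In groups of 4 libraries, a library was singled out when its gap to the nearest of the others took up most of the range of its group. For values that vary smoothly, chance does this in about 1 in 20 groups, and 38 groups were examined. Sesn1 in control centrocyte library 1 was 36.6 CPM, against 46.3 to 47.6 CPM in the other 3 control centrocyte libraries. Without that library the genotype difference of Sesn1 in centrocytes remained called. Eda2r was 0.0261 CPM in mutant centrocyte library 1 and 0.0274 CPM in mutant centroblast library 2, against 0 in the other 3 libraries of each group. Each value is a single read, which always meets the rule when the others are 0, so the chance rate does not apply to it.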

How the results depend on the processing

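Of 4 called members in centroblasts and 3 in centrocytes, the same genes stayed called with every single library left out, and leaving out single libraries kept 4 to 5 and 3 to 4 calls. Other settings changed the number of called members as follows, with the share of all tested genes called in brackets. In mutant against control centrocytes it was 2 in males alone (5.82%), in females alone (13.9%) and without mutant libraries 3 and 4 (7.64%). It was 4 with DESeq2 (20.5%) and with the GC and length offset (28.2%), and 5 in the compared groups alone (21.3%). In centroblasts it was 1 in females alone, 3 in the compared groups alone, and 5 with DESeq2, with a mean of 1 CPM or more, and with the offset, with or without the block. Between zones in mutants it was 1 in females alone (6.84%). It was 2 without a filter (6.90%), in males alone (8.79%) and without that pair (11.8%), and 5 with the offset, without (26.0%) or with (34.6%) the block. Between zones in controls it was 3 without a filter, 2 in the compared groups alone, in males alone and in females alone, and 2 to 4 with single libraries left out. With the replicate block it was 2 (22.7%) in that comparison, where Zmat3 (edgeR adjusted p = 0.0761) and Trp53inp1 (adjusted p = 0.204) were lost. It was 3 (25.2%) between zones in mutants, with no call changed, and 3 (14.3%) in genotype in centrocytes. There Mdm2 was lost (edgeR adjusted p = 0.0581) and Trp53inp1 gained (adjusted p = 0.0119). In centroblasts it was 4 (6.17%), and for the interaction 0 (0%). Apart from the interaction, the block fits left out the groups not compared, so these changes cannot be assigned to the block. The compared groups without the block also gave a Trp53inp1 call in centrocytes and 2 calls between zones in controls. Across genotypes the block ties different mice by number alone, so it is no paired test of genotype or of the interaction. Among same-numbered libraries, the correlation of deviations was -0.0278 to 0.344 between genotypes in centroblasts, -0.0886 to 0.123 in centrocytes and -0.0059 to 0.452 between zones in controls, and not every library correlated best with its own number. With the offset, Mdm2 (-0.21, adjusted p = 0.0175) and Trp53inp1 (-0.48, adjusted p = 0.00303) were called lower in centrocytes than in centroblasts of mutants. The cause of these changes was not tested, and fits of 1 sex hold 2 libraries a group. Signs turned only for differences that were not called in the fit to all libraries. In females alone, Trp53 was -0.018 in genotype in centroblasts and -0.071 between zones in controls, and Plk3 -0.040 in genotype in centrocytes. Phlda3 was 0.065 between zones in mutants and 0.47 in controls, Ccng1 0.19 between zones in controls, and the interactions were -0.078 for Sesn1, -0.13 for Sesn2, -0.15 for Zmat3, -0.40 for Phlda3 and -0.16 for Trp53inp1. In males alone, Trp53 was 0.019 in genotype in centrocytes and 0.023 between zones in mutants, Sesn2 0.24 in genotype in centrocytes, and Ccng1 -0.19 between zones in mutants. With the offset, and with offset and block, Trp53 was 0.047 and 0.038 in genotype in centrocytes and -0.093 and -0.087 between zones in controls, and Sesn2 0.0066 and 0.0074 in genotype in centrocytes and -0.15 and -0.14 between zones in controls. Ccng1 was -0.0039 between zones in mutants with the offset. Without mutant centrocyte libraries 3 and 4, Sesn2 was 0.10 in genotype in centrocytes, Ccng1 -0.027 between zones in mutants, and the interactions -0.019 for Sesn1 and -0.70 for Phlda3. With single libraries left out, Trp53 ranged over -0.026 to 0.15 in genotype in centroblasts, -0.068 to 0.0076 in centrocytes, -0.088 to 0.013 between zones in mutants and -0.044 to 0.13 in controls, and Sesn2 over -0.16 to 0.062 in genotype in centrocytes. Between zones, Ccng1 ranged over -0.094 to 0.16 in mutants and -0.26 to 0.097 in controls, and Phlda3 over -0.44 to 0.12 and -1.11 to 0.64. The interaction ranged over -0.026 to 0.13 for Sesn1, -0.016 to 0.20 for Sesn2, -0.026 to 0.33 for Ccng1, -0.78 to 0.97 for Phlda3 and -0.018 to 0.47 for Trp53inp1. The number of other p53 targets called ranged over 1 (females alone) to 10 (males alone) in centroblasts, against 6 in the fit to all libraries. The shares of all tested genes called in these fits were 3.27%, 14.3% and 10.5%. In centrocytes it ranged over 3 (without mutant libraries 3 and 4) to 11 (offset), against 8, where the shares were 7.64%, 28.2% and 16.5%. Depth limits Phlda3 and Eda2r.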
